A study of Mus musculus with 6 samples.

Results

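Interferon-stimulated genes were followed in Tot2 cells, a line of mouse myeloid progenitors. A list of 39 such genes was given, and each was read through the probe whose RefSeq accession belongs to it, with the brightest probe taken where a gene had several. Probes were found for 37 of the 39 genes, out of 20263 genes with a value on every array, and Mx1 and Mx2 were not matched. All cells came from an Irf8 knockout mouse, grew with 5.0 ng/ml of the cytokine GM-CSF, were transduced by retrovirus and were selected with 2 µg/ml puromycin from 48 hr on. Cells were harvested on day 4. The 3 groups carried the empty vector MSCV-puro (control), MSCV-IRF8FLAG or MSCV-KLF4FLAG, with 1 array from each of 2 independent experiments per group, 6 arrays in all. The groups are therefore forms of 1 cell line in which a tagged factor was supplied from a viral vector, and no interferon is named among the agents of any group. The study set IRF8 beside KLF4 in the differentiation of these cells towards monocytes.

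Interferons are secreted proteins that bind receptors on the cell surface and, through the kinases of the JAK family, activate transcription factors, STAT2 and IRF9 among them. These factors bind a DNA element called the ISRE, and the genes they switch on detect viral nucleic acids, cut or trap viral RNA, mark proteins with the ubiquitin-like ISG15 and damp the signal again. IRF8 and IRF5 belong to the same family of DNA-binding proteins as IRF9, and several genes of this set can also be induced without interferon.

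Promoters are shown to let the ISRE core be seen: those of the largest called rises (Oasl1 and Gbp2) and the largest called falls (Ifit2 and Gbp3) in IRF8-labelled cells among members with a promoter in the table, and those of Isg15 and Rsad2, which were added after their values were seen. Each is the 250 bases before the start site as listed by RefSeq for GRCm38.p6, read 5′ to 3′ along the gene, and capitals mark every match to GAAANNGAAA on either strand, overlapping matches included.
Isg15 (chr4:156200819-156201068, - strand): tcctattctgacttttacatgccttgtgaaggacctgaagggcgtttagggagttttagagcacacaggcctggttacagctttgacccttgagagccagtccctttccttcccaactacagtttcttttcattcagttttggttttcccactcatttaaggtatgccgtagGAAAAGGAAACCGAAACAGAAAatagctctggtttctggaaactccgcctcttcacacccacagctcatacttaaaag
Gbp2 (chr3:142620413-142620662, + strand): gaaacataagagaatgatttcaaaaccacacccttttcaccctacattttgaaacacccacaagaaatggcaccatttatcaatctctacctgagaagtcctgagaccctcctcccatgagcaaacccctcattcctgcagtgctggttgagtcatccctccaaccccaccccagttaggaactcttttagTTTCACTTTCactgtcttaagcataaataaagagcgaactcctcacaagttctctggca
Gbp3 (chr3:142559794-142560043, + strand): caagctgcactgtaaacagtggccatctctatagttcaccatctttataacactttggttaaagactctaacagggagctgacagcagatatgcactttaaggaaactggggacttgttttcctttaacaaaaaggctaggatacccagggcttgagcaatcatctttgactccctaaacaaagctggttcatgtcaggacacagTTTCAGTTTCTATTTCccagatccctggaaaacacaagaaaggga
Rsad2 (chr12:26456453-26456702, - strand): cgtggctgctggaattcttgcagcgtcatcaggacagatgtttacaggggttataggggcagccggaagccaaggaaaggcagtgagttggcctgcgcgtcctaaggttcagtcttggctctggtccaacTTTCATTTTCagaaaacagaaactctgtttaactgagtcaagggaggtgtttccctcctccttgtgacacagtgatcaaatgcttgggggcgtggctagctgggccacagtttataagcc
Oasl1 (chr5:114922990-114923239, + strand): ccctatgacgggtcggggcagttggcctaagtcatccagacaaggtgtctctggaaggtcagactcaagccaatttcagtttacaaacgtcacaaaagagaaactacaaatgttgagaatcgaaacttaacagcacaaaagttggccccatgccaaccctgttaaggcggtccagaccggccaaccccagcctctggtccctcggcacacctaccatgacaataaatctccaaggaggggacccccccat
Ifit2 (chr19:34550444-34550693, + strand): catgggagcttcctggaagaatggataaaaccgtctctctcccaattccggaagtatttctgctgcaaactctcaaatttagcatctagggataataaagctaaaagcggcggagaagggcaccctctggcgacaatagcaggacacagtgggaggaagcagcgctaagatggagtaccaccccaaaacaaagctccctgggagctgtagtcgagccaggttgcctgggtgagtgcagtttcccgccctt
Isg15 held 3 overlapping matches, Gbp3 held 2 overlapping matches, Gbp2 and Rsad2 held 1 each, and Oasl1 and Ifit2 held 0 in this window. The matches of Gbp2, Gbp3 and Rsad2 lie on the opposite strand and appear as its reverse complement. For Ifit2 and Gbp3, which have 2 promoters in the table, the one shown is 1 of them.

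Over the whole set, 29 of the 39 genes had promoters in the table, 36 promoters in all. The ISRE core was present in the 250 bases of 11 of these 36 promoters (30.6%), against 978 of all 32851 promoters (2.98%). With the 50 bases after the start site included, 17 of 36 (47.2%) held it, against 3.44% of all. A composite of an ETS and an IRF half-site, GGAANNGAAA, which IRF8 can bind together with PU.1, was in 2 of 36 (5.56%) against 2.3%, and the GAS element TTCNNNGAA, a site of STAT factors, was in 4 of 36 (11.1%) against 7.02%. Both strands were searched for each motif, and a match is a description of the letters and not of a bound site. Of the 10 tested genes with the ISRE core before the start site, 7 were called higher and 1 lower on IRF8-labelled arrays against control. On KLF4-labelled arrays the counts were 4 and 0. Over all genes tested, 25.8% were called higher and 35.7% lower on IRF8-labelled arrays, and 10.4% and 8.86% on KLF4-labelled arrays. Of the 17 tested genes without the ISRE core before the start site, the counts were 9 and 4 on IRF8-labelled arrays, and 2 and 1 on KLF4-labelled arrays. Ddx58, Eif2ak2, Ifih1, Ifitm3 and Trim21 among them held it when the 50 bases after the start site were included.

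Values are log2 of the background-subtracted signal relative to the 75th percentile of the array, so a difference of 1 is a 2-fold change. A level is given for a probe only to compare arrays, since probes differ in brightness. Probes passed the scanner software's test of being well above background for 47.1% to 56.8% of probes per array, the lowest such signal lay between -5.42 and -4.32, and 0 spots were saturated. In what follows, a probe is above background when it passed this scanner test and below background when it did not. All 10 myeloid markers, among them Mpo and Elane of granule proteins and the GM-CSF receptor gene Csf2rb, were well above background in every group. Of these 10 markers 7 rose and 2 fell in IRF8-labelled cells against control, with the Fc receptor gene Fcgr3 6.32-fold and Ptprc 4.02-fold higher and Elane 7.16-fold lower (limma adjusted p = 2.84e-05, 7.59e-05 and 2.27e-04). In KLF4-labelled cells 4 rose and 0 fell. Of all 13247 genes tested, limma called 25.8% up and 35.7% down with the IRF8 label. With the KLF4 label the shares were 10.4% up and 8.86% down. Of 12 fibroblast or packaging cell markers, 8 to 10 per group were above background on neither array, Dcn, Lum, Pdgfra and Fbn1 among them. Their summed log2 level was -1.64 to -1.57 on control, -2.12 to -1.66 on IRF8-labelled and 1.15 to 1.20 on KLF4-labelled arrays, where Thy1 read 0.95 and 1.09 against -3.68 and -3.14 on control arrays. The summed level of 10 plasmacytoid dendritic cell markers, a cell type known for interferon production, was 6.72 to 6.93, 6.50 to 6.85 and 6.26 to 6.73 in the same order. Siglech, a defining marker of that cell type, read 6.02 to 6.68 over the arrays, close to that sum. In IRF8-labelled cells Blnk of the same list was at least 27.3-fold above control (limma adjusted p = 1.14e-05), and Runx2, Tcf4 and Cox6a2 fell by 1.38, 0.46 and 0.55 (limma adjusted p ≤ 0.00807). The 10 lymphocyte markers summed to 2.89 to 3.07, 3.38 to 3.80 and 2.63 to 3.16, and 5 or 6 of them per group were above background on neither array. The part of other cells in the results was not tested, and in bulk RNA a change in the mix of cells and a change per cell cannot be told apart.

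The transduced genes were read as a check of the labels. Irf8 gave 0.49 and 0.64 on control arrays, 2.94 and 3.05 on IRF8-labelled arrays and 2.18 and 2.16 on KLF4-labelled arrays. Its probe was thus well above background in groups whose labels name no IRF8 vector, in cells from an Irf8 knockout mouse. Whether that signal stands for functional IRF8 was not tested. Klf4 gave -1.62 and -1.28 on control, 4.46 and 4.61 on IRF8-labelled and -1.56 and -1.33 on KLF4-labelled arrays, so Klf4 signal was high only on the arrays labelled IRF8. The positions of the probes within the transcripts were not used here, and a probe outside the viral insert would not read it. The names IRF8-labelled and KLF4-labelled are used for this reason, and the directions below rest on the labels.

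Genes were compared with limma in 1 fit over the 3 groups, 2 arrays each, and called when the two-sided p adjusted by Benjamini-Hochberg over the 13247 genes tested was under 0.05. Of the 37 members, 35 were tested, since a test needed a group in which both arrays showed the probe well above background. Ifit1, an RNA-binding antiviral protein, was above background on no array, with values of -7.66 to -5.88. Ifi44 was above background on 1 array only, the IRF8-labelled array of experiment 1, at -2.18 against -7.52 on its partner.

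Interferon-stimulated genes were mostly higher on IRF8-labelled arrays. Against control, 24 of the 35 tested members rose (68.6%) and 5 fell (14.3%), where 25.8% of all genes tested were called higher and 35.7% lower. The rises reached 2-fold in 15 members and the falls in 3. The median log2 difference of the tested members was 0.83, and over all genes tested it was -0.13; within experiments 1 and 2 the members' median was 0.76 and 0.95. Over all 37 matched members, including the dim ones, the median was 0.84. With spike-in scaling 15 members rose and 3 fell, where 14.5% and 20.4% of all genes were called, and the rises of Oas2, Ifih1, Ifi35, Stat2, Trim21, Trim25, Dtx3l, Eif2ak2, Rtp4 and Socs1 were not called. Because a member that passed only through a bright group had to differ, these counts describe the members that could be measured. Members were also chosen with earlier results of these data known. Their shares beside those of all genes, here and in the comparisons that follow, are therefore descriptions.

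On KLF4-labelled arrays fewer members were called against control. There 13 of 35 rose (37.1%) and 1 fell (2.86%), against 10.4% and 8.86% of all genes tested, and the rises reached 2-fold in 8 members. With the experiment as a block, 16 rose and 3 fell, where 16.5% and 34.4% of all genes tested were called. With spike-in scaling 8 rose, and the rises of Dhx58, Isg15, Trim30a, Parp14 and Samd9l were not called. With normexp background correction 6 rose, and those of Oas3, Usp18, Xaf1, Gbp2, Trim30a, Parp14 and Rtp4 were not called. Both of these settings called 0 members lower, Ifit2 included. The median difference was 0.21 over the members and -0.16 over all genes tested, and 0.27 and 0.34 within the experiments. The split over all genes depended on the scaling: 1373 rose and 1174 fell as reported, 1316 and 183 with arrays centred on the median, 793 and 94 with spike-in scaling, 1563 and 768 with quantile normalization, 1374 and 736 with the deposited value table, 788 and 264 with normexp. With the experiment as a block it was 2187 and 4557. Scaling also moved the median of all genes, to -0.04 here with the median, to -0.25 for IRF8 against control with spike-ins and to -0.17 for IRF8 against KLF4 with either. The members' medians were 0.34, 0.71 and 0.39 to 0.40 in the same settings.

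Set directly against KLF4-labelled arrays, IRF8-labelled arrays were higher in 21 members (60%) and lower in 7 (20%), against 23.7% and 26.8% of all genes tested. The median difference was 0.55, with -0.01 over all genes tested, and 0.65 and 0.56 within the experiments. With spike-in scaling 9 members were called higher and 6 lower (8.48% and 12% of all genes), and Ifit3, Ifi35, Ifih1, Dhx58, Isg15, Stat2, Eif2ak2, Dtx3l, Xaf1, Trim25, Adar and Socs1 were not called. Over all genes the split of 3141 higher and 3554 lower became 2075 and 3847 with arrays centred on the median. The rises reached 2-fold in 12 members, and Oas2, Rtp4, Herc6 and Ifit2 were at least 2-fold lower. The 3 comparisons share arrays pair by pair, so their counts are given side by side and are not independent of each other.

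**Figure D1:**
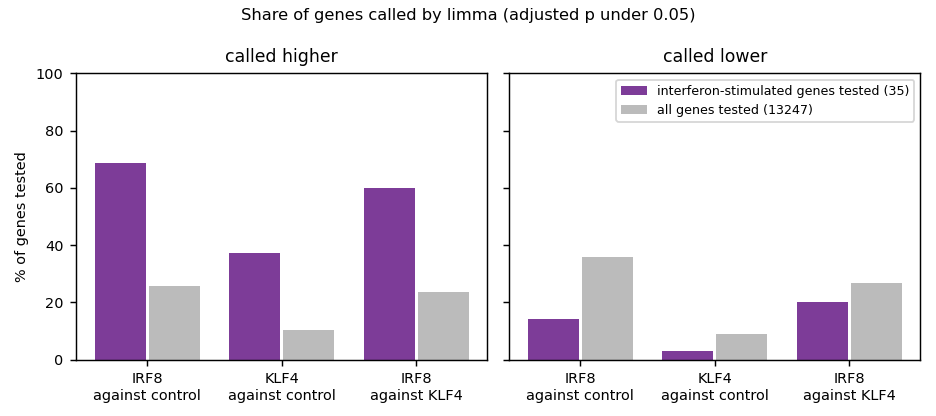
Percent of genes called higher (left) or lower (right) by limma in each comparison, for the 35 tested interferon-stimulated genes and for all 13247 genes tested. The members' share called higher was 68.6%, 37.1% and 60%, against 25.8%, 10.4% and 23.7% of all genes.

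**Figure D2:**
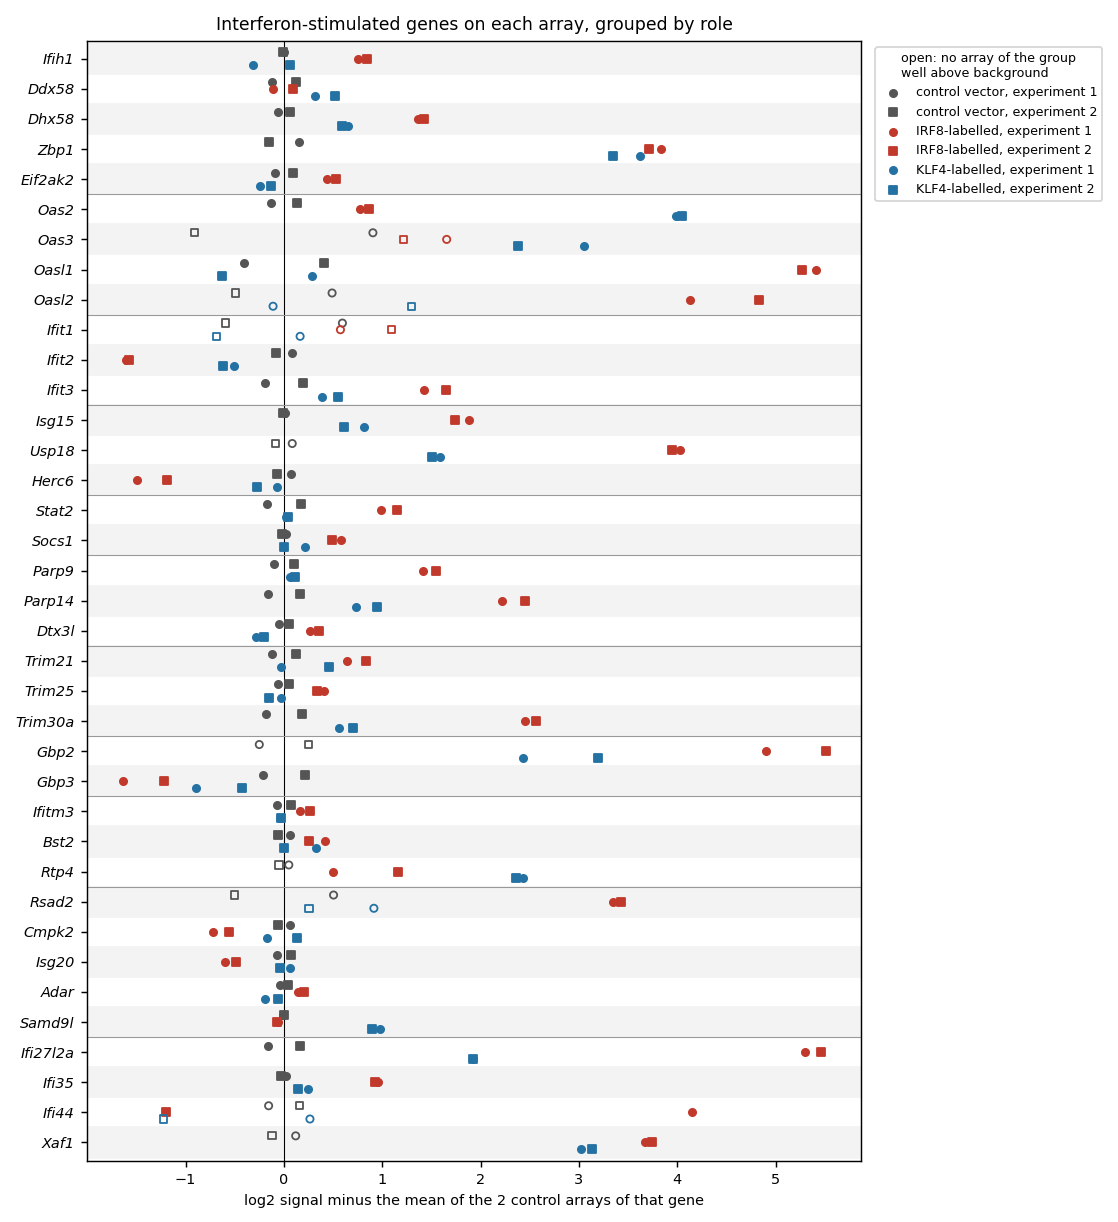
Each of the 37 matched genes on each of the 6 arrays, as log2 signal minus the mean of the 2 control arrays of that gene, with lines between the groups of genes by role. Circles are experiment 1 and squares experiment 2, and open symbols mark groups with no array well above background. Oasl1, Gbp2 and Ifi27l2a lie furthest to the right on IRF8-labelled arrays, and Oas2 on KLF4-labelled arrays.

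Among the sensors of foreign nucleic acid, Zbp1 showed the largest change. Zbp1, which recognises Z-form nucleic acid and can start necroptosis, gave -3.18 and -3.48 on control, 0.50 and 0.38 on IRF8-labelled and 0.29 and 0.02 on KLF4-labelled arrays. Both transduced groups lay far above control. The rise was 13.6-fold in IRF8-labelled cells (log2 3.77 ± 0.15 (SE), limma adjusted p = 5.59e-05) and 11.2-fold in KLF4-labelled cells (log2 3.48 ± 0.15, limma adjusted p = 2.12e-04). The transduced groups differed from each other by 0.28 on the log2 scale (95% interval -0.11 to 0.67, limma adjusted p = 0.185, and 0.0279 with the experiment as a block). A second, fainter probe of Zbp1 gave rises of 2.53 and 3.02 against control.

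The RIG-I-like receptors, which detect viral RNA in the cytoplasm, did not move together. Dhx58, the member without a signalling domain, gave -0.88 and -0.76 on control, 0.54 and 0.60 on IRF8-labelled and -0.17 and -0.23 on KLF4-labelled arrays. Each group lay apart from the others, and all comparisons were called (log2 1.39, 0.62 and 0.77 for IRF8 against control, KLF4 against control and IRF8 against KLF4, SE 0.09 each). The call for KLF4 against control was lost without control array 1 or either KLF4-labelled array (limma adjusted p 0.0719 to 0.0902). Ifih1, the sensor MDA5, rose 1.75-fold in IRF8-labelled cells (log2 0.81 ± 0.15, limma adjusted p = 0.00617). For KLF4-labelled cells the Ifih1 difference from control was -0.12 and was not called. Ddx58, the sensor RIG-I, read 1.05 and 1.26 on IRF8-labelled arrays between control values of 1.04 and 1.29, a difference of -0.01 (95% interval -0.37 to 0.36). Its KLF4-labelled values, 1.48 and 1.68, lay above both other groups, by 0.42 against control (limma adjusted p = 0.102, and 0.00951 with the experiment as a block). Ddx58 in IRF8-labelled cells was lower than in KLF4-labelled cells by 0.42, at a limma adjusted p of 0.0596 (0.00345 with the block). Eif2ak2, the kinase PKR that stops translation when it meets double-stranded RNA, rose 1.4-fold in IRF8-labelled cells (log2 0.49 ± 0.11, limma adjusted p = 0.012). That call was lost without control array 1 or either IRF8-labelled array (limma adjusted p 0.051 to 0.0679).

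The OAS family, enzymes and relatives that sense double-stranded RNA and feed the RNA-degrading enzyme RNase L, differed member by member. Oasl1, which lacks synthetase activity, gave 0.41 and 0.27 on IRF8-labelled arrays, against -5.40 and -4.59 on control and -4.71 and -5.62 on KLF4-labelled arrays. The IRF8-labelled arrays stood alone, while the other groups overlapped each other near background with 1 array each above it. The fitted rise of Oasl1 was 5.34 ± 0.40 against control and 5.51 ± 0.40 against KLF4-labelled cells (log2, SE, limma adjusted p = 3.06e-04 and 5.42e-04). With dim signals raised to each array's lowest signal well above background, the rises were 4.80 and 5.40 (limma adjusted p = 1.24e-04 and 2.11e-04), and with normexp background correction they were 3.31 and 3.65. Oasl2, a related protein, gave -3.00 and -2.30 on IRF8-labelled arrays and was above background on no other array. It was at least 4.48-fold higher than control and at least 5.75-fold higher than KLF4-labelled cells (limma adjusted p = 0.002 and 0.00475). These bounds set the mean of the bright group against, for each dim array, the higher of its lowest signal well above background and the probe's own signal.

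Oas2 ran the other way between the transduced groups. Oas2, an active oligoadenylate synthetase, gave -3.72 and -3.46 on control, -2.82 and -2.72 on IRF8-labelled and 0.40 and 0.46 on KLF4-labelled arrays. It rose 16.2-fold in KLF4-labelled cells (log2 4.02 ± 0.12, limma adjusted p = 7.19e-05) and 1.77-fold in IRF8-labelled cells (log2 0.82 ± 0.12, limma adjusted p = 0.00269). IRF8-labelled cells were 9.17-fold below KLF4-labelled cells (log2 -3.20 ± 0.12, limma adjusted p = 1.28e-04). Oas3, the synthetase with the longest chain of repeats, was above background only on KLF4-labelled arrays, at -3.26 and -3.94. It was at least 2.32-fold above control (limma adjusted p = 0.044), a call that was lost without any 1 array other than control array 1. The call was also lost with normexp background correction, no filter on dim probes or a floor on dim signals (limma adjusted p 0.104 to 0.498). Oas3 on IRF8-labelled arrays read -4.66 and -5.10, below background, and was called neither against KLF4-labelled arrays (limma adjusted p = 0.153, and 0.0495 with the experiment as a block) nor against control, also below background (limma adjusted p = 0.103, and 0.033 with the block). Both were also called with spike-in scaling and without control array 1 (limma adjusted p 0.00989 to 0.0319).

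The IFIT proteins bind viral RNA and stall translation, and the 2 that could be tested moved in opposite directions. Ifit2 gave -1.14 and -1.30 on control, -2.82 and -2.79 on IRF8-labelled and -1.73 and -1.84 on KLF4-labelled arrays. Ifit2 fell by 1.58 in IRF8-labelled cells (2.99-fold lower, SE 0.10, limma adjusted p = 1.86e-04) and was 2.02-fold below KLF4-labelled cells. In KLF4-labelled cells it fell by 0.56 (limma adjusted p = 0.0217), a call lost without any 1 array other than control array 2 (limma adjusted p 0.0624 to 0.127). Ifit3 gave -5.16 and -4.78 on control arrays, of which 1 was above background, -3.55 and -3.32 on IRF8-labelled and -4.58 and -4.42 on KLF4-labelled arrays. The rise of Ifit3 in IRF8-labelled cells was 2.9-fold (log2 1.54 ± 0.17, limma adjusted p = 0.00105), and with normexp background correction it was not called. The KLF4-labelled difference of 0.47 was called only with the experiment as a block (limma adjusted p = 0.113, and 0.0166 with the block). Ifit3 has a near-identical neighbour, Ifit3b, which the same probe could read.

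In the ISG15 system, the modifier and the enzyme that removes it were higher and a ligase was lower. Isg15 gave -0.02 and -0.04 on control, 1.85 and 1.71 on IRF8-labelled and 0.78 and 0.58 on KLF4-labelled arrays. The groups kept a clear order with no overlap: Isg15 was 3.5-fold above control in IRF8-labelled cells (log2 1.81 ± 0.11, limma adjusted p = 1.74e-04) and 1.63-fold in KLF4-labelled cells (log2 0.71 ± 0.11, limma adjusted p = 0.0156). The latter call was lost without either control array or KLF4-labelled array 1 (limma adjusted p 0.067 to 0.0907). Usp18, the protease that removes ISG15 and blocks the interferon receptor, was not above background on control arrays and gave -1.23 and -1.31 on IRF8-labelled and -3.67 and -3.75 on KLF4-labelled arrays. Usp18 was at least 11.7-fold above control in IRF8-labelled cells (limma adjusted p = 1.67e-05) and at least 2.15-fold in KLF4-labelled cells (limma adjusted p = 7.87e-04). The latter was not called with normexp background correction or with a floor on dim signals (limma adjusted p up to 0.462). IRF8-labelled cells were 5.43-fold above KLF4-labelled cells. Herc6, the ISG15 ligase of the mouse, gave -1.59 and -1.74 on control, -3.16 and -2.85 on IRF8-labelled and -1.74 and -1.94 on KLF4-labelled arrays. Herc6 fell by 1.34 in IRF8-labelled cells (2.53-fold lower, SE 0.14, limma adjusted p = 0.00101), by 0.51 at its second probe, and its KLF4-labelled difference of -0.17 was not called.

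Stat2, which joins IRF9 in the factor that binds the ISRE, gave 1.39 and 1.73 on control, 2.55 and 2.71 on IRF8-labelled and 1.58 and 1.60 on KLF4-labelled arrays. IRF8-labelled arrays were above all others, 2.1-fold against control (log2 1.07 ± 0.14, limma adjusted p = 0.00209), while the KLF4-labelled values lay between those of control (difference 0.03, 95% interval -0.34 to 0.39). With spike-in scaling the rise in IRF8-labelled cells was not called (limma adjusted p 7.35e-04 to 0.0521 over the alternatives). Socs1, which inhibits the JAK kinases, rose 1.45-fold in IRF8-labelled cells (log2 0.53 ± 0.11, limma adjusted p = 0.00849). That call was lost without IRF8-labelled array 1 (limma adjusted p = 0.0611).

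Parp14 was graded over the groups, and Parp9 and its partner Dtx3l were not. Parp14, an ADP-ribosyltransferase, gave 0.50 and 0.83 on control, 2.88 and 3.12 on IRF8-labelled and 1.40 and 1.61 on KLF4-labelled arrays. IRF8-labelled cells were 5.07-fold above control (log2 2.34 ± 0.16, limma adjusted p = 2.57e-04) and 2.83-fold above KLF4-labelled cells. The KLF4-labelled rise of 0.84 (limma adjusted p = 0.0286) was lost without any 1 array other than control array 2 (limma adjusted p 0.0539 to 0.147). Parp9 gave 0.20 and 0.40 on control, 1.71 and 1.85 on IRF8-labelled and 0.36 and 0.41 on KLF4-labelled arrays, a 2.79-fold rise for IRF8-labelled cells (log2 1.48 ± 0.11, limma adjusted p = 3.25e-04), while KLF4-labelled and control values overlapped. IRF8-labelled cells exceeded KLF4-labelled cells in Parp9 by 1.40 (limma adjusted p = 7.21e-04). Dtx3l, the ubiquitin ligase that pairs with PARP9, rose by 0.31 in IRF8-labelled cells (limma adjusted p = 0.0328), a call lost without any 1 of the 6 arrays (limma adjusted p 0.0623 to 0.161). The KLF4-labelled difference of Dtx3l, -0.24, was called only with the experiment as a block (limma adjusted p = 0.131, and 0.0216 with the block).

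All 3 TRIM ubiquitin ligases rose in IRF8-labelled cells, and Trim30a rose most. Trim30a, which restrains signalling downstream of Toll-like receptors, gave -0.82 and -0.46 on control, 1.81 and 1.92 on IRF8-labelled and -0.08 and 0.06 on KLF4-labelled arrays. That was 5.67-fold above control for IRF8-labelled cells (log2 2.50 ± 0.15, limma adjusted p = 1.57e-04) and 3.66-fold above KLF4-labelled cells. The KLF4-labelled rise of 0.63 (limma adjusted p = 0.0445) was lost without any 1 array other than control array 2 (limma adjusted p 0.0908 to 0.191). Close copies of Trim30a lie beside it in the genome and its probe could read them. Trim21, a cytosolic antibody receptor, rose by 0.73 and Trim25, a ligase that acts on RIG-I, by 0.37 in IRF8-labelled cells (limma adjusted p = 0.0249 and 0.023). Both calls were lost without control array 1 or either IRF8-labelled array (limma adjusted p 0.065 to 0.113 and 0.071 to 0.129). Trim21 differed between the transduced groups by 0.52 (limma adjusted p = 0.0818, and 0.0129 with the experiment as a block).

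The guanylate-binding proteins, GTPases that attack the membranes of intracellular pathogens, split in direction. Gbp2 gave -6.40 and -5.90 on control, below background, and -1.25 and -0.64 on IRF8-labelled and -3.72 and -2.96 on KLF4-labelled arrays. It was at least 14.6-fold above control in IRF8-labelled cells (limma adjusted p = 2.38e-04) and at least 2.77-fold in KLF4-labelled cells (limma adjusted p = 0.00798), and the former were 5.28-fold above the latter. The KLF4-labelled rise was not called with normexp background correction or with a floor on dim signals (limma adjusted p up to 0.0848). Gbp3 gave 3.64 and 4.06 on control, 2.21 and 2.63 on IRF8-labelled and 2.96 and 3.42 on KLF4-labelled arrays. The Gbp3 groups did not overlap, and Gbp3 fell by 1.43 in IRF8-labelled cells (2.69-fold lower, SE 0.25, limma adjusted p = 0.00547). The other differences of Gbp3 were not called: -0.66 for KLF4 against control (limma adjusted p = 0.126, and 0.00401 with the block) and -0.77 for IRF8 against KLF4 (limma adjusted p = 0.0524, and 9.29e-04 with the block). The second was also called with quantile normalization, median scaling, trend and robust variance or the filter on all arrays (limma adjusted p 0.032 to 0.0419). Both genes lie on mouse chromosome 3, and the promoters shown for both hold the ISRE core.

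Of the 3 membrane restriction factors, Rtp4 was called and the other members were not. Rtp4, a chaperone of membrane receptors, gave -5.44 and -5.54 on control, below background, -4.99 and -4.33 on IRF8-labelled and -3.06 and -3.13 on KLF4-labelled arrays. It was at least 3.29-fold above control in KLF4-labelled cells (limma adjusted p = 0.00278) and IRF8-labelled cells were 2.96-fold below KLF4-labelled cells (limma adjusted p = 0.004). In IRF8-labelled cells, where 1 of 2 arrays was above background, it was at least 1.11-fold above control (limma adjusted p = 0.0251), a call lost without either control or either KLF4-labelled array (limma adjusted p 0.0526 to 0.0926). The IRF8-labelled call of Rtp4 against control was also lost with spike-in scaling, normexp background correction or no filter on dim probes. A floor on dim signals, and trend and robust variance, ended it as well. The KLF4-labelled calls of Rtp4 were lost with normexp background correction. Ifitm3, which hinders fusion of viruses in endosomes, and Bst2, the tether of budding virions also called tetherin, were bright in all groups. Their IRF8-labelled differences from control of 0.22 and 0.34 were not called (limma adjusted p = 0.0987 and 0.094), but were with the experiment as a block (0.03 and 0.0173) and with quantile normalization (0.0111 and 0.0294). The Ifitm3 difference of 0.25 from KLF4-labelled cells had a limma adjusted p of 0.0812 (0.0239 with the block).

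Enzymes that act on RNA and nucleotides moved in both directions. Rsad2, the enzyme viperin that makes a chain-terminating nucleotide, gave -3.36 and -3.28 on IRF8-labelled arrays and was above background on no other array. It was at least 2.81-fold above control and at least 3.61-fold above KLF4-labelled cells (limma adjusted p = 0.00126 and 0.00364), and neither was called with normexp background correction. Cmpk2, a mitochondrial nucleotide kinase and the genomic neighbour of Rsad2, fell by 0.64 in IRF8-labelled cells (limma adjusted p = 0.0109). This direction is opposite to that of Rsad2, and the call was lost without control array 1 or IRF8-labelled array 1 (limma adjusted p 0.0593 to 0.0687). Isg20, an exonuclease of RNA, fell by 0.54 in IRF8-labelled cells (limma adjusted p = 0.00637, and 0.0507 without IRF8-labelled array 1). Samd9l, an antiviral factor that limits translation, gave 1.14 and 1.15 on control, 1.09 and 1.07 on IRF8-labelled and 2.12 and 2.04 on KLF4-labelled arrays. Only the KLF4-labelled arrays were high, 1.9-fold above control (log2 0.93 ± 0.08, limma adjusted p = 0.00211, and 0.143 with spike-in scaling), and IRF8-labelled cells were lower by 1.00 on the log2 scale than KLF4-labelled cells (limma adjusted p = 7.42e-04). A second Samd9l probe gave a KLF4-labelled rise of 0.95. The RNA-editing enzyme Adar differed from control by 0.17 and -0.13, not called (limma adjusted p = 0.169 and 0.352). The IRF8-labelled difference was called with the experiment as a block and with quantile normalization (limma adjusted p = 0.0357 and 0.0385). Adar differed between the transduced groups by 0.30 (limma adjusted p = 0.0466), a call lost without any 1 of the 6 arrays (limma adjusted p 0.077 to 0.201).

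The other induced genes rose in IRF8-labelled cells. Ifi27l2a, a small hydrophobic protein, gave -1.36 and -1.04 on control, 4.10 and 4.26 on IRF8-labelled and 0.72 and 0.72 on KLF4-labelled arrays. It rose 41.7-fold in IRF8-labelled cells (log2 5.38 ± 0.14, limma adjusted p = 1.74e-05) and 3.78-fold in KLF4-labelled cells (log2 1.92 ± 0.14, limma adjusted p = 0.0011). IRF8-labelled cells were 11-fold above KLF4-labelled cells in this gene. A related gene, Ifi27l2b, lies beside it and could share its probe. Xaf1, a pro-apoptotic protein that antagonises XIAP, was below background on control arrays and gave -1.95 and -1.88 on IRF8-labelled and -2.60 and -2.49 on KLF4-labelled arrays. Xaf1 was at least 7.45-fold above control in IRF8-labelled cells and at least 4.82-fold in KLF4-labelled cells (limma adjusted p = 2.79e-05 and 1.35e-04), the latter not called with normexp background correction (limma adjusted p = 0.0633). The transduced groups differed in Xaf1 by 0.63 (limma adjusted p = 0.00883). That call was lost with quantile, median or spike-in scaling, normexp or the floor on dim signals (limma adjusted p 0.0661 to 0.405). It was also lost without IRF8-labelled array 2 or KLF4-labelled array 1 (differences 0.60 and 0.58). A second Xaf1 probe gave 0.80, not called (limma adjusted p = 0.121). Ifi35, a partner of NMI, rose 1.92-fold in IRF8-labelled cells (log2 0.94 ± 0.08, limma adjusted p = 5.66e-04). Its KLF4-labelled difference of 0.20 was called only with the experiment as a block (limma adjusted p = 0.159, and 0.0374 with the block).

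**Figure D3:**
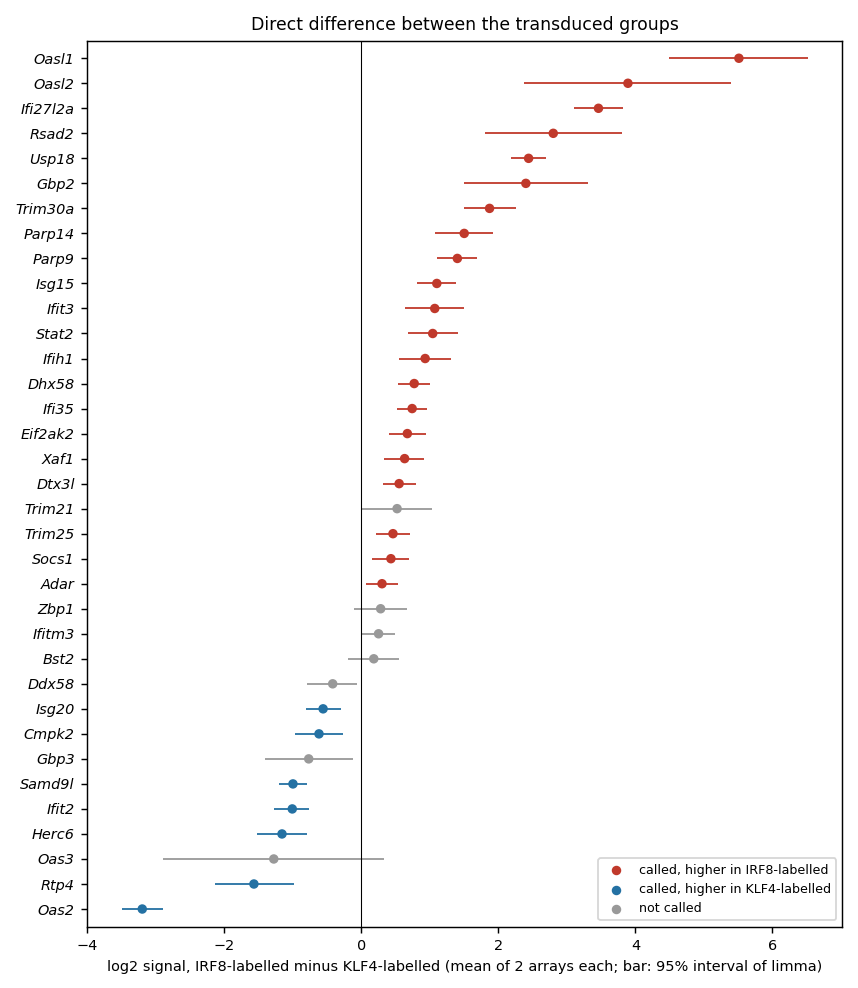
Log2 difference of IRF8-labelled minus KLF4-labelled cells for the 35 tested genes, each point the difference of means of 2 arrays and each bar the 95% interval of limma. Red and blue points were called higher in IRF8-labelled and KLF4-labelled cells, 21 and 7 genes, and grey points were not called. Oasl1 lies at the top at 5.51 and Oas2 at the bottom at -3.20.

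The genes that make, receive and transmit interferon were read from 6 further lists, against the same background of 25.8% higher and 35.7% lower over all genes for IRF8-labelled cells and 10.4% and 8.86% for KLF4-labelled cells. Of 18 interferon ligand genes, 15 were matched and 8 tested, and limma called 0 against control in IRF8-labelled and in KLF4-labelled cells, with 0 also at an unadjusted p under 0.05. Between the transduced groups Ifnab was called, higher by 0.50 with the IRF8 label (limma adjusted p = 0.0481), but no ligand was called without control array 1, control array 2, IRF8-labelled array 1 or KLF4-labelled array 2, nor with any other scaling, normexp, the deposited value table, no filter, the mean of a gene's probes, or trend and robust variance. Ifnb1 and Ifng were above background on no array. Among the tested ligands, every probe but 1 was well above background on every array, those of Ifnab and Ifnl3 included. The exception missed it on a control array. The Ifnl3 probe read -2.44 to -1.18. Of 8 tested receptor and kinase genes, 5 rose in IRF8-labelled cells and 3 in KLF4-labelled cells by limma, and 0 fell in either (1 and 0 were lower at an unadjusted p under 0.05). Ifnar1, a chain of the receptor for type I interferon, rose by 2.13 and 0.80 (limma adjusted p = 8.04e-05 and 0.00699), and Ifngr2, a chain of the receptor for interferon gamma, by 1.94 and 0.76 (limma adjusted p = 7.38e-05 and 0.00541). Jak2, a kinase of the interferon gamma receptor, gave 4.22 and 4.43 on IRF8-labelled arrays, against 2.00 and 2.34 on control and 1.97 and 2.10 on KLF4-labelled arrays. Il10rb, which serves the receptors of interferon lambda and interleukin-10, rose by 1.21 and 0.69. All 3 KLF4-labelled receptor calls were lost with spike-in scaling and without KLF4-labelled array 1.

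Of 8 transcription factors of the pathway, 5 rose and 1 fell in IRF8-labelled cells, and 4 rose and 0 fell in KLF4-labelled cells by limma (0 were lower at an unadjusted p under 0.05). Irf8 itself counts among the risers of both. In KLF4-labelled cells this is a probe signal in cells from an Irf8 knockout mouse, and whether functional IRF8 rose was not tested. Irf5, a factor of inflammatory signalling, gave -2.04 and -2.63 on control, 4.74 and 4.71 on IRF8-labelled and -0.06 and -0.07 on KLF4-labelled arrays. Irf9, the DNA-binding part of the ISRE factor, rose by 2.59 in IRF8-labelled and 0.74 in KLF4-labelled cells (limma adjusted p = 1.37e-04 and 0.0287). Irf7, which amplifies type I interferon production, gave -2.74 and -2.45 on IRF8-labelled and -2.66 and -2.73 on KLF4-labelled arrays, against -4.61 and -4.87 on control, of which 1 was above background. Its rises of 2.15 and 2.04 left the transduced groups 0.10 apart (95% interval -0.28 to 0.48).

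Among 12 tested adaptors and kinases of nucleic acid sensing, 7 rose and 2 fell in IRF8-labelled cells, and 2 rose and 0 fell in KLF4-labelled cells by limma (2 were lower at an unadjusted p under 0.05). Unc93b1, which carries Toll-like receptors to endosomes, rose by 2.34, and Tlr7, an endosomal receptor of RNA, by 1.69 in IRF8-labelled cells (limma adjusted p = 2.18e-04 and 3.30e-04). Ikbke, a kinase that activates IRF3 and IRF7, was high only on KLF4-labelled arrays, at 1.75 and 2.09, against 0.08 and 0.33 on control and -0.09 and 0.20 on IRF8-labelled arrays. Of 12 negative regulators, 4 rose and 2 fell in IRF8-labelled cells, and 2 rose and 1 fell in KLF4-labelled cells. These are few genes, and no list's counts were tested against the shares of all genes. Socs3, an inhibitor of cytokine receptors, rose by 2.78 and 2.10, while Rnf125, a ligase that marks RIG-I for destruction, fell by 2.16 and 0.61 (limma adjusted p = 8.56e-05 and 0.0186). With the experiment as a block, the KLF4-labelled counts became 4 and 4 for the adaptors and 4 and 3 for the negative regulators. Over all genes tested, the block called 16.5% higher and 34.4% lower in that comparison.

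A further list of interferon-stimulated genes outside the set had 57 of 70 tested. It had 37 risers and 10 fallers in IRF8-labelled cells, and 15 and 1 in KLF4-labelled cells. The median differences were 0.72 and 0.18. This list too was chosen with earlier results of these data known. With the experiment as a block, the KLF4-labelled counts were 25 and 7, where 16.5% and 34.4% of all genes tested were called. Ifi204, a sensor of DNA, was below background on control arrays and gave 2.26 and 2.29 on IRF8-labelled and -0.92 and -0.97 on KLF4-labelled arrays. Ifi204 was therefore at least 136-fold and at least 14.6-fold above control (limma adjusted p = 5.30e-06 and 3.12e-05). Slfn2, a factor of immune cell quiescence, gave -0.21 and -0.33 on control, 4.79 and 4.59 on IRF8-labelled and 3.10 and 3.01 on KLF4-labelled arrays. Slfn1, below background on control arrays, was at least 25.3-fold above them in IRF8-labelled cells (limma adjusted p = 9.49e-04). The ADP-ribosyltransferase gene Parp12 gave -0.22 and 0.28 on IRF8-labelled arrays, against -6.26 and -4.31 on control, of which 1 was above background (limma adjusted p = 0.00166).

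**Figure D4:**
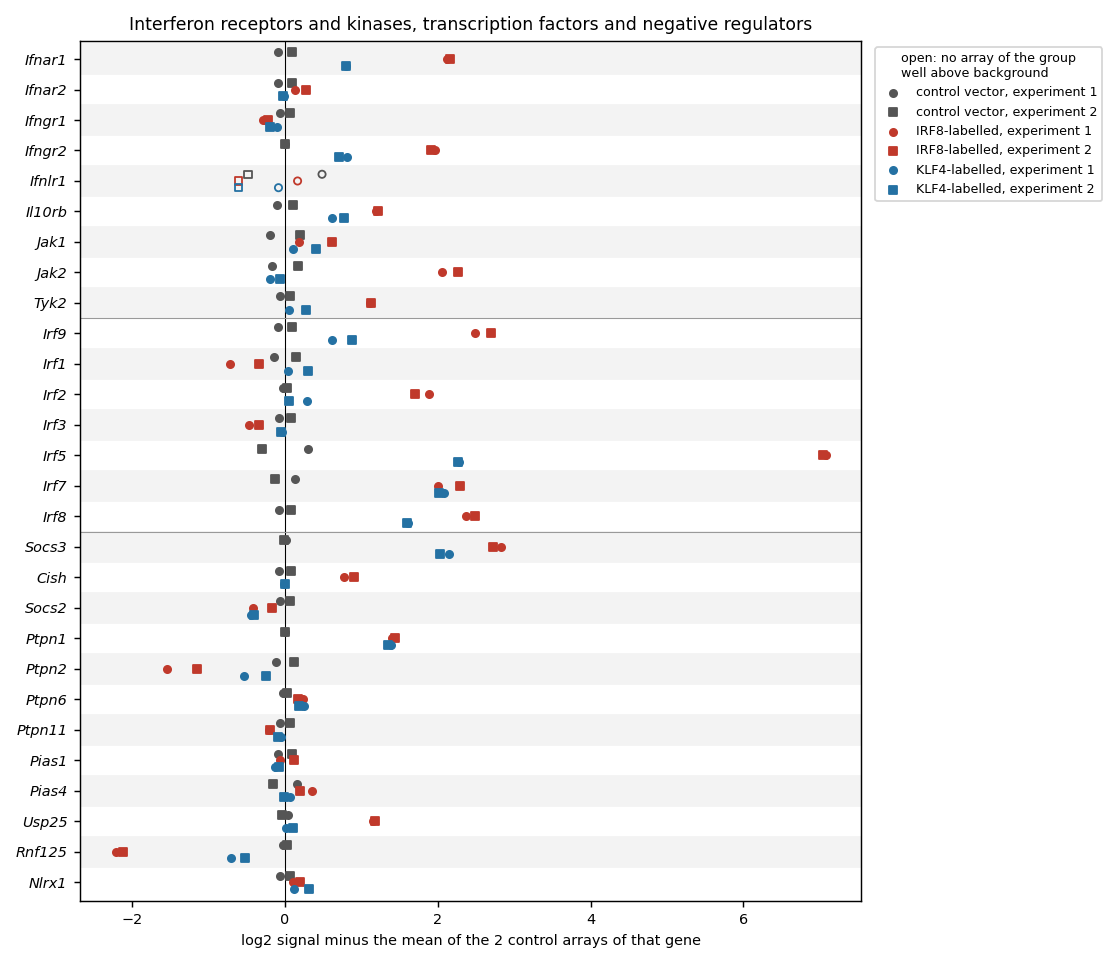
Interferon receptors and kinases, transcription factors and negative regulators given here, on each of the 6 arrays, as log2 signal minus the mean of the 2 control arrays of that gene. Circles are experiment 1 and squares experiment 2, and open symbols mark groups with no array well above background. Irf5 lies furthest to the right on IRF8-labelled arrays, and Rnf125 furthest to the left.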

How the data were processed

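Cy3-labelled total RNA was measured on 6 Agilent arrays, each of 62976 spots. Per the file headers, the deposited scanner values are intensity with the local background taken off in Agilent Feature Extraction 10.7.3.1, and arrays were not scaled to each other. In the deposited value table, also intensity, each column was 1 factor (0.642 to 1.388) times the processed signal, to within 1% for all but 120 to 163 probes, so its scale is linear and uncentred; its column medians were 24.5 to 29.3. It served as an alternative.

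Without control spots 55681 probes remained, of which 75 marked by the software were dropped. Log2 of the processed signal minus the array's 75th percentile was used. Of 28390 probes with accessions of the RefSeq form, 26762 were matched to 20284 genes (RefSeq, GRCm38.p6). Of a gene's probes the one with the highest mean over all arrays was taken. limma 3.58.1 in R 4.3.3 fitted 3 groups (3 residual degrees of freedom), and 95% intervals are those of the fit. The fit was also run on simulated data with independent noise and far fewer changed genes than were called here. No result rests on that run. Members and lists were chosen with earlier results of these data known. Members called in at least 1 comparison with a log2 difference of at least 1 are given on every array, the others by their differences, and up to 4 genes of each further list are named. A gene of the further lists is not reported here and stays in the counts.

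Replicate number, experiment, slide and scan coincide. Deviations from group means correlated at r = 0.282, 0.321 and 0.391 between groups, so arrays of the same number deviated together. Whether this came with the experiment, the slide or the scan cannot be told apart. The fit with this number as a block is printed beside member calls it altered and counts it shifted more than 1.5 times. The 17 alternatives were other scalings (quantile, median, spike-in), normexp (offset 50, on the median signal because mean signals are not in the files used), the deposited table, filters and a floor on dim probes, the mean of probes, trend and robust variance, the block and leaving out each array. Each probe by itself was added after seeing the data.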

Additional observations from a re-analysis of the deposited data

How the results depend on the processing

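No member call was reversed under the 17 alternatives; of 1758 single comparisons of a member with a setting, 1569 kept their side of the threshold, 155 lost a call and 34 gained one. The experiment as a block gained 15 calls and lost 0. Calls not lost under any alternative that tested the gene numbered 15 of 29 for IRF8 against control. For KLF4 against control they numbered 3 of 14 (Oas2, Zbp1 and Ifi27l2a), and for IRF8 against KLF4 12 of 28. Of these, Oasl1, Oasl2, Usp18, Gbp2 (both IRF8 comparisons) and Xaf1 (IRF8 against control) were not tested with the filter on all arrays. Leaving out an array ended 8 of the 29, 6 of the 14 and 6 of the 28 calls. The cause of each change was not tested, except that fewer genes were tested with the filter on all arrays (26 members) and fewer samples were used without an array.

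Member counts for IRF8 against control were 15 higher and 3 lower with spike-in scaling, and 19 to 22 and 3 to 5 without an array. For KLF4 against control they were 8 higher with spike-in scaling, no filter on dim probes or the filter on all arrays and 6 with normexp, 0 lower with median or spike-in scaling, normexp or no filter and 3 with the replicate block, and 8 to 11 and 0 to 1 without an array. For IRF8 against KLF4 they were 9 higher with spike-in scaling, and 18 to 20 and 5 to 8 without an array. The members' median for IRF8 against control was 0.49 with normexp and 0.51 with the filter on all arrays (0.83 to 0.92 without an array). For KLF4 against control it was 0.28 with quantile normalization, 0.34 with median scaling, 0.08 with normexp, 0.10 with the filter on all arrays, 0.11 with the floor and 0.27 with the mean of probes (0.20 to 0.29 without an array). For IRF8 against KLF4 it was 0.39, 0.40 and 0.45 with median scaling, spike-in scaling and normexp, 0.63 without a filter and 0.44 with the filter on all arrays (0.53 to 0.68 without an array).

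Among the further lists, spike-in scaling gave 23 and 9 higher of the other interferon-stimulated genes for IRF8 and KLF4 against control and 15 for IRF8 against KLF4, 3, 1 and 2 higher of the adaptors in the same order, 0 receptors higher for KLF4 against control and 3 for IRF8 against KLF4, and 0 negative regulators higher for IRF8 against KLF4. Normexp and no filter gave 7 and 9 other genes higher for KLF4 against control, and normexp 2 transcription factors. The replicate block gave 25 higher and 7 lower other genes, 4 and 4 adaptors, 4 and 3 negative regulators and 0 and 1 ligands for KLF4 against control, and 4 negative regulators, 2 transcription factors and 1 receptor lower for IRF8 against control. For IRF8 against KLF4 it gave 11 other genes lower and 2 ligands higher. Over all genes tested the block called 16.5% higher and 34.4% lower for KLF4 against control. It called 31.3% and 43.8% for IRF8 against control, and 31.8% and 35.5% for IRF8 against KLF4. The remaining list counts moved by 1 or 2 genes, ligands higher to 0 to 2 and lists lower to 0 to 2. Without an array, counts higher for IRF8 against control were 32 to 37 other genes, 5 to 6 adaptors and 0 to 2 ligands, with 7 to 11 other genes, 1 to 2 adaptors and 0 to 2 transcription factors lower. For KLF4 against control they were 7 to 15 other genes, 0 to 3 receptors and 1 to 2 adaptors higher, with 0 to 1 other genes and negative regulators lower. For IRF8 against KLF4 they were 22 to 30 other genes higher and 4 to 7 lower, 0 to 2 ligands and 4 to 6 adaptors higher, and 1 to 3 adaptors, 0 to 2 transcription factors and 1 to 2 negative regulators lower. Irf8 in IRF8 against KLF4 was 0.67 and not called with spike-in scaling.

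With 2 arrays a group, a call rests on few samples, and fold changes of probes near background are bounds.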
